A study of Drosophila melanogaster with 14 samples.

Results

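Doc, Doc2, Doc3 and Doc4 are 4 families of non-LTR retrotransposons in Drosophila melanogaster, and their copies made up 103 of the 5392 transposable element (TE) insertions in the table. A copy was taken as a member when its FlyBase insertion symbol carried 1 of these 4 family names before the brace, with any "-element" ending dropped. Doc had 68 copies, Doc2 had 7, Doc3 had 21 and Doc4 had 7. The symbols Doc2 and Doc3 also belong to T-box transcription factor genes of the fly, and no row of those genes was used. RNA came from heads of tau transgenic flies, whose transgene encodes the microtubule-binding protein that aggregates in human tauopathies, and from heads of control flies, labelled wild type. Each genotype had 3 libraries of total RNA depleted of ribosomal RNA, and a library used 500 ng taken from 6 heads pooled, so that 18 heads stood for a genotype. The labels give no further allele, driver, sex or age for either genotype. The table holds TE features alone, so the head was not checked here against marker genes of its cell types.

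Elements of this kind move by copying their RNA. Their own promoter lies at the start of the element, the RNA encodes a reverse transcriptase, and the new DNA is made directly at the target site, often incompletely, so that many genomic copies lack their front end. Doc belongs to the jockey clade, whose other members include F, jockey, Juan and X and the telomeric elements HeT-A and TART. In the fly germ line such elements are kept silent largely by piRNAs, and reads from single copies in heads can come from the element's own promoter or from a host transcript that runs through it.

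The libraries held 76721 to 331009 counts in TE insertions, and the tau 1 library was the shallowest. Reads carry no molecular identifiers, so these numbers bound the counting error only. Levels are given in CPM, the counts of a feature scaled to a common total of TE counts with TMM factors. All levels are therefore relative to other TE counts, and a change of all TE RNA together would not show. CPM is not divided by the length of an element, which was not used here, so CPM compares 1 family or 1 copy between libraries and does not rank families by transcript number. In whole heads, fewer cells that transcribe an element and less of its RNA per cell cannot be told apart. Counts of RNA also do not show which insertions the flies of each genotype carry, and this was not tested. The labels call the libraries of a genotype independent biological replicates.

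Doc itself was lower in tau heads, by close to 1 unit on the log2 scale, and Doc2, Doc3 and Doc4 did not pass the test. Doc held 3046, 9964 and 11836 counts in the 3 tau libraries, against 20800, 21505 and 17414 in the 3 control libraries. Scaled for depth this was 40224, 38004 and 37431 CPM in tau and 70125, 75829 and 71967 CPM in control. Every tau library lay below every control library, as was so in 1 direction or the other for 43.1% of all families tested. The means were 38553 ± 1475 CPM in tau libraries and 72640 ± 2911 CPM in control libraries (SD, n = 3 each). The log2 fold change was -0.91 ± 0.057 (SE), with an adjusted p of 9.57e-06 in edgeR's quasi-likelihood test over all 116 families tested. Doc ranked 5 from the lowest fold change among these 116 and was the family with the third most counts.

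Among the 116 families, 16 were lower in tau (13.8%) and 20 were higher (17.2%). Scaled by library totals the split was 21 lower and 13 higher, and by the authors' size factors it was 17 lower and 11 higher. The log2 fold change of Doc ran from -0.996 with library totals to -0.88 without control 2 over the other scalings, filters, tests and left-out libraries, and its call was kept in each. Without the shallow tau 1 library it was -0.95.

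The CPM values of Doc2 overlapped between the genotypes. It had 5599, 5611 and 5743 CPM in tau, against 5637, 6040 and 5637 CPM in control. Its log2 fold change was -0.030 ± 0.054 (SE, edgeR adjusted p = 0.767). Doc3 had 2364, 2250 and 2501 CPM in tau, against 2478, 2229 and 2591 CPM in control, and the groups overlapped. Its log2 fold change was -0.034 ± 0.080 (SE, edgeR adjusted p = 0.828). For both families the sign turned when 1 library was left out. Doc4 had 1466, 1518 and 1670 CPM in tau, against 1382, 1474 and 1475 CPM in control, with a log2 fold change of 0.12 ± 0.078 (SE, edgeR adjusted p = 0.308). Of the 4 families, 1 was thus called, as lower, beside 31.0% of all families called in either direction.

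**Figure D1:**
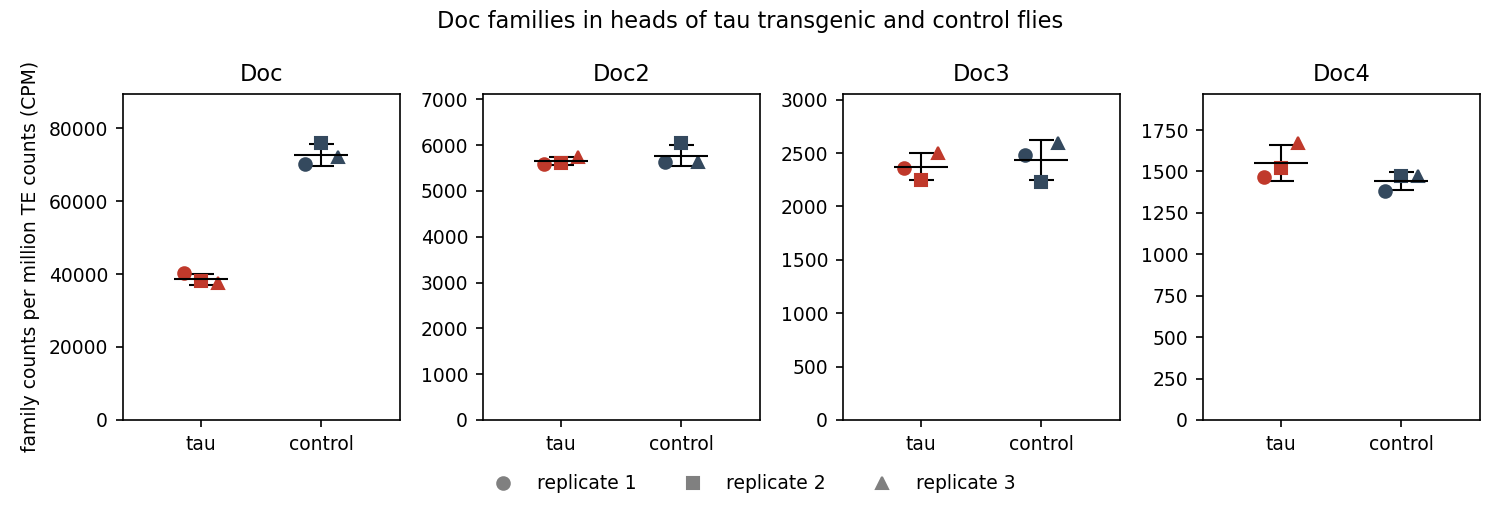
CPM of each Doc family (linear axes from 0, a scale for each panel) in the 3 tau libraries (red) and the 3 control libraries (dark), with symbols for replicates 1 to 3 and bars for mean ± SD. Doc averaged 38553 CPM in tau against 72640 CPM in control with no overlap, while the points of Doc2, Doc3 and Doc4 overlap between genotypes.

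The difference between Doc and its namesakes was compared within each library, where no size factor enters. There were 7.18, 6.77 and 6.52 Doc counts per Doc2 count in tau, against 12.4, 12.6 and 12.8 in control. The groups did not overlap, and the means of 6.83 ± 0.336 and 12.6 ± 0.166 (SD, n = 3 each) gave a two-sided exact permutation p of 0.1, the smallest that 3 against 3 allows. Doc counts per Doc3 count were 17.0, 16.9 and 15.0 in tau and 28.3, 34.0 and 27.8 in control. Doc counts per Doc4 count were 27.4, 25.0 and 22.4 in tau and 50.7, 51.4 and 48.8 in control. Both of these ratios also had an exact permutation p of 0.1, which stayed 0.1 after Benjamini-Hochberg adjustment over the 6 permutation tests made. Each of the 3 ratios was lower in every tau library than in any control library. Doc3 counts per Doc2 count averaged 0.420 ± 0.0174 in tau and 0.423 ± 0.0477 in control. Doc4 counts per Doc2 count were 0.2618, 0.2706 and 0.2907 in tau and 0.2452, 0.2440 and 0.2617 in control. They were higher in tau and narrowly without overlap, and this ratio was not tested.

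As a share of all TE counts, the 4 families held 4.90%, 4.62% and 4.52% in the tau libraries, against 8.15%, 8.75% and 8.50% in the control libraries (exact permutation p = 0.1). Doc alone accounted for nearly all of this gap, with 3.75% ± 0.201 in tau heads and 7.47% ± 0.288 in control heads (SD, n = 3 each). The share of Doc2, unlike its CPM, was also lower in every tau library than in any control library. It was 0.549% ± 0.0031 in tau and 0.594% ± 0.0212 in control, and this share was not tested. Shares add up to a fixed total, and the LTR element copia took more of it in tau. With copia left out of the total, the 4 families held 5.56% ± 0.128 in tau and 8.96% ± 0.315 in control (exact permutation p = 0.1). A further denominator was the jockey-clade families listed here, these 4 included, and the list need not hold every family of the clade. Of its counts they held 31.5% ± 0.472 in tau and 49.7% ± 0.264 in control (exact permutation p = 0.1). The telomeric elements HeT-A and TART-A in this denominator were themselves higher in tau.

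Of 25 other jockey-clade families listed, 20 were in the table and 18 could be tested. In edgeR 3 of them rose, 2 fell and 13 did not pass, with a median log2 fold change of -0.0049, beside 0.0086 over all 116 families. The estimates of the falls were smaller in size than that of Doc. Juan averaged 2581 ± 261 CPM in tau and 3394 ± 144 CPM in control (log2 fold change -0.40 ± 0.086 SE, edgeR adjusted p = 0.00797). The jockey element averaged 11593 ± 287 CPM in tau and 14509 ± 914 CPM in control (-0.32 ± 0.059 SE, edgeR adjusted p = 0.00408). F, which had the most counts of the non-telomeric relatives, did not pass (-0.10 ± 0.044 SE, edgeR adjusted p = 0.105), nor did X (-0.086 ± 0.052 SE, edgeR adjusted p = 0.265). The rises were TART-A (2.61), HeT-A (0.60) and G6 (0.88 on the log2 scale). TART-A and HeT-A maintain the chromosome ends of the fly, and G6 is an element of few counts, with 519 ± 201 CPM in tau and 252 ± 11.3 CPM in control.

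**Figure D2:**
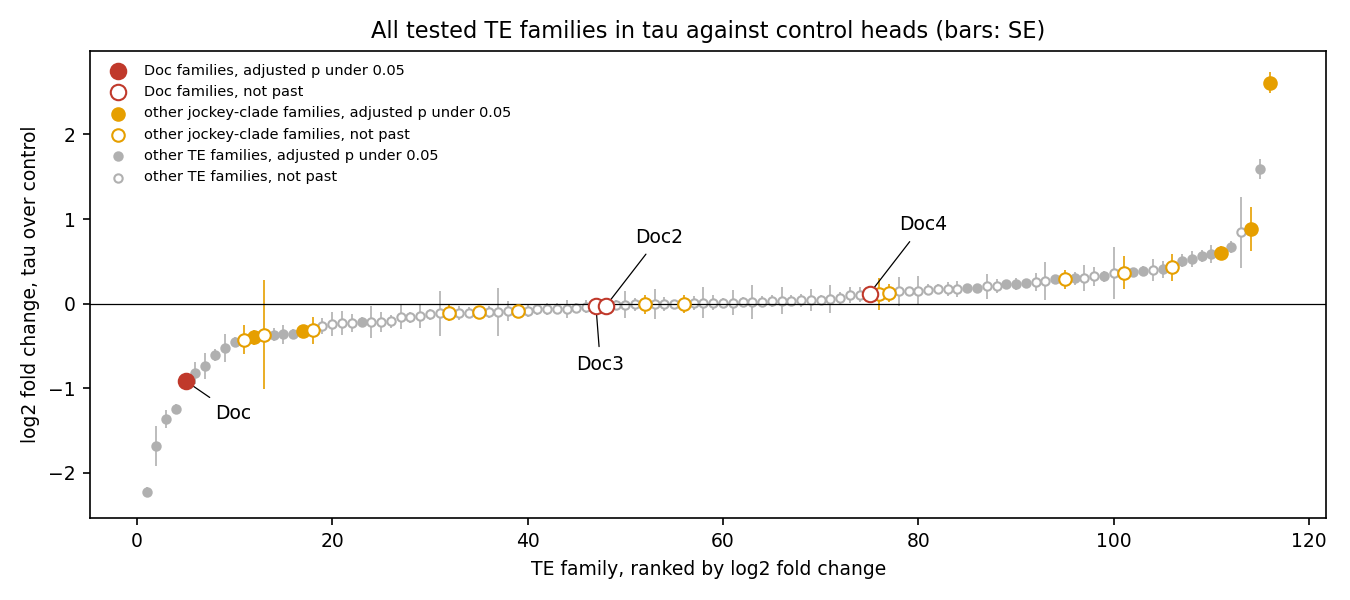
Log2 fold change of tau over control (y axis, bars are SE) for the 116 tested TE families in rank order (x axis), with the Doc families in red, other jockey-clade families in orange and the rest in grey, and filled points for an adjusted p under 0.05. Doc lies at rank 5 from the lowest at -0.91, while Doc2, Doc3 and Doc4 lie between -0.034 and 0.12.

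The families whose log2 CPM followed Doc most closely over the 6 libraries were the errantivirus 297 (Pearson r = 0.993, Spearman rho = 0.943), the DNA transposon transib4 (0.992 and 0.657) and the LTR family gypsy12 (0.989 and 0.943). These coefficients describe 6 libraries in 2 genotypes and mostly follow the step between the genotypes, since each of these families was also lower in tau. After the genotype means were taken off, r with Doc was 0.0464 for 297, -0.650 for transib4 and 0.711 for gypsy12. Against the same 6 libraries, r was 0.431 for Doc2, 0.161 for Doc3 and -0.637 for Doc4.

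Within Doc, single copies differed in how they stood in tau. Counts were listed for 44 of the 68 copies, and 24 were at 0 in all 6 libraries. The 3 copies with the most counts held 63.0% of the family's counts. These were Doc{}406, the copy in the gene CHKov1 and Doc{}163. The next, Doc{}325, is described with them and was chosen after its values were seen. How the authors assigned reads that match several copies was not stated in any source used here, so values of single copies are less certain than the family sum.

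The copy Doc{}CHKov1[Doc1420] (FBti0019430) is an insertion in CHKov1, a gene named for its likeness to choline kinases. This insertion is well known from wild populations, where flies that carry it differ in resistance to an insecticide and to the sigma virus. It had 12591, 12769 and 12551 CPM in tau, against 12142, 13385 and 12730 CPM in control. All 6 libraries lay within a narrow range, and the log2 fold change was -0.013 ± 0.066 (SE, edgeR adjusted p = 0.957), with a sign that turned in 3 of 14 other settings. Because the rest of the family was lower in tau, this copy held 30.8%, 35.0% and 34.0% of Doc counts in tau, against 17.2%, 17.2% and 17.5% in control. With it left out of the family sum, a choice made after the values were seen, the log2 fold change of Doc was -1.22 ± 0.067 (SE).

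Doc{}406 (FBti0019200) had 5578, 10649 and 10778 CPM in tau, against 20812, 17002 and 21906 CPM in control. Every tau library was below every control library, and tau 1 was the lowest of all. The log2 fold change was -1.14 ± 0.273 (SE), and the edgeR adjusted p of 0.0783 did not pass. Without tau 1 the copy passed with a smaller change, -0.89 (edgeR adjusted p = 0.0319). With any other library left out it did not pass (edgeR adjusted p of 0.127 to 0.209). The copy passed in DESeq2 (adjusted p = 0.00766) and is listed as lower in the authors' deposited table (log2 fold change -0.99).

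Doc{}163 (FBti0019084) had 5457, 1080 and 427 CPM in tau, against 10445, 16558 and 12852 CPM in control. Doc{}325 (FBti0019137) had 3513, 644 and 255 CPM in tau, against 6533, 10476 and 5773 CPM in control. In both copies tau 1 stood high among the tau libraries, several-fold above tau 2 and tau 3, although below each control library. The log2 fold changes of -2.54 ± 0.934 for Doc{}163 and -2.41 ± 0.969 for Doc{}325 (SE) did not pass, with edgeR adjusted p-values of 0.208 and 0.258. Without tau 1 they were -4.14 (edgeR adjusted p = 0.0272) and -4.08 (edgeR adjusted p = 0.0337). With any other library left out neither copy passed. The edgeR adjusted p-values were then 0.259 to 0.415 for Doc{}163 and 0.322 to 0.464 for Doc{}325. In DESeq2 Doc{}163 passed (adjusted p = 0.041) and Doc{}325 did not (adjusted p = 0.0765). Neither copy passed in the authors' deposited table.

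The proportion of Doc{}163 to Doc{}325 was similar in every library but control 3, where it was higher. There were 1.55, 1.68 and 1.67 Doc{}163 counts per Doc{}325 count in tau, against 1.60, 1.58 and 2.23 in control. The highest library stood 38.8 times above the lowest for Doc{}163 and 41.0 times for Doc{}325. Doc{}406 did not share this pattern: it had 1.02, 9.86 and 25.3 counts per Doc{}163 count in tau, against 1.99, 1.03 and 1.70 in control.

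Taken as a sum, these 3 copies were steadier than each alone. Together Doc{}406, Doc{}163 and Doc{}325 had 14548, 12374 and 11460 CPM in tau, against 37790, 44035 and 40530 CPM in control. They made up 35.6%, 33.9% and 31.1% of Doc counts in tau and 53.6%, 56.7% and 55.6% in control. The 3 copies were put together after their values were seen, so this is a description. All other Doc copies together had 26294, 24103 and 25410 CPM in tau, against 32655, 33592 and 32367 CPM in control, again without overlap. The log2 fold change of the family without the 3 copies was -0.34 ± 0.047 (SE), and with the CHKov1 copy left out as well it was -0.63 ± 0.065. The summed counts of the remaining copies were thus lower in tau as well. Of the 35 Doc copies that passed the low-count filter, 25 had a log2 fold change below 0 and 10 above it, so the sums do not stand for every copy.

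**Figure D3:**
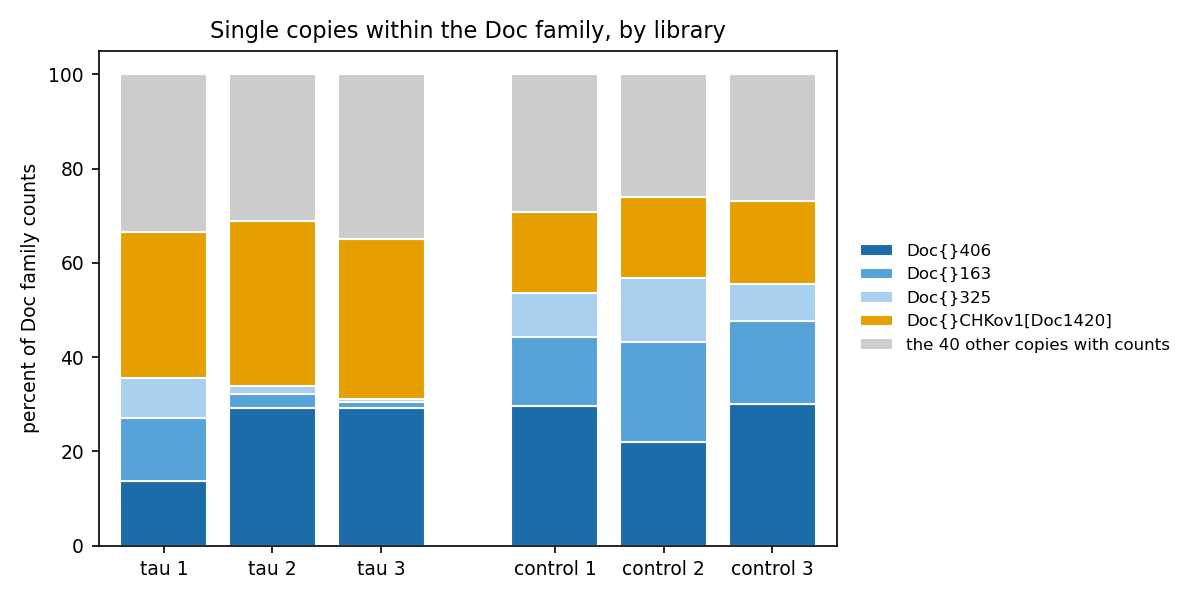
Stacked bars of the percent of Doc family counts (y axis) held by 4 single copies and by the 40 other copies with counts, in the 3 tau and the 3 control libraries (x axis). The copy in CHKov1 holds 30.8% to 35.0% in tau against 17.2% to 17.5% in control, and Doc{}163 and Doc{}325 shrink to 1.16% and 0.693% in tau 3.

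Of the 103 copies, 50 passed the low-count filter and were tested: 35 of Doc, 3 of Doc2, 9 of Doc3 and 3 of Doc4. A copy could pass the filter through the genotype in which it was high alone, and 3 of the 4 copies called lower did so. The 53 copies that were not tested comprised 35 with no count and 18 with counts, at most 96 counts over the 6 libraries for any copy and 500 in all. In edgeR 4 copies were called lower and 0 higher, all 4 of Doc, where 3.36% of the 1249 tested insertions were called lower, 2.56% higher and 5.92% in either direction. At an unadjusted p under 0.05 there were 13 lower and 2 higher copies, all of Doc, beside 10.2% and 8.57% of all insertions. DESeq2 called 7 lower and 2 higher, where 5.97% and 5.97% of the 1172 insertions with a DESeq2 adjusted p were called. The authors' deposited table lists 7 Doc copies lower and 2 higher at an adjusted p under 0.05, beside 5.19% and 4.34% of all insertions with an adjusted p there. The genotypes did not overlap in 21 of the 50 tested copies, with tau below control in 17 and above it in 4, and in 29.2% of all tested insertions. Other tested copies also passed the filter through a single genotype. The counts at an unadjusted p, from DESeq2 and without overlap were therefore partly set by the filter.

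Doc{}359 (FBti0019166) was the called copy that kept counts in both genotypes. It had 885, 1142 and 1343 CPM in tau, against 3556, 2299 and 3797 CPM in control, with no overlap. The log2 fold change was -1.51 ± 0.252 (SE, edgeR adjusted p = 0.0276). The call was lost in 5 of the 6 fits with a library left out, with an adjusted p of up to 0.0979, and it was kept without control 2.

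The other called copies had no count in any tau library. They passed the low-count filter through the control libraries alone and so had to differ, and their calls are given as a description that adds nothing to the counts. Doc{}1407 (FBti0019417) had 0, 0 and 0 counts in tau, against 140, 84 and 120 in control. Set against 3 counts over the 3 tau libraries, the limit that a count of 0 allows, it was at least 94.5-fold lower in tau. Doc{}2142 (FBti0060203) had 0, 0 and 0 counts in tau, against 70, 50 and 56 in control, at least 48.4-fold lower in tau. Doc{}404 (FBti0019198) had 0, 0 and 0 counts in tau, against 20, 17 and 16 in control, at least 14.6-fold lower in tau. DESeq2 also called the first 2 of these copies and gave no adjusted p for Doc{}404. Each of these copies had counts in every control library. The family as a whole was still present in tau, at 0.531 times the control level relative to other TE counts.

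These bounds cover counting error only, and whether the tau flies carry the copies concerned was not tested. The calls of Doc{}1407 and Doc{}2142 were lost without control 3 (edgeR adjusted p = 0.0638 for each), and that of Doc{}404 without control 1, control 2 or control 3. Without control 3 there were 0 called copies, without control 1 there were 2, and without tau 1 there were 7. Below the filter, a copy of Doc3 had the same pattern: Doc3-element{}622 had 0, 0 and 0 counts in tau, against 9, 8 and 4 in control, and was not tested. In all, 4 of the 103 copies had 0 counts in each tau library and at least 1 in each control library, beside 0.668% of all 5392 insertions. The reverse pattern, with 0 counts in each control library and at least 1 count in each tau library, was shown by 0 of the 103 copies, beside 0.223% of all insertions, a comparison in which the shallow tau 1 library makes 0 counts likelier in tau. Doc4{}2475 came close to it, with 1, 17 and 19 counts in tau, against 1, 0 and 1 in control, and was not tested.

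Zeros also arose between libraries of 1 genotype. In 10 of the 103 copies, a library had 0 counts while another of the same genotype had at least 20. Doc{}928 had 0, 100 and 0 counts in tau, against 105, 61 and 0 in control. Doc{}1674 had 0, 75 and 0 counts in tau, against 0, 21 and 0 in control. Doc{}966 had 20, 99 and 26 counts in tau, against 0, 102 and 56 in control. These 3 copies, chosen after their values were seen, varied as much within a genotype as between genotypes. Copies with a count numbered 46, 55 and 52 of the 103 in the tau libraries and 60, 58 and 58 in the control libraries. The deepest library, tau 3, had 52 such copies and the shallowest control library, control 3, had 58. The same count was not made over all insertions, so these numbers are not shown to be particular to Doc-family copies.

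In 2 of the tested Doc copies every tau library stood above every control library. Doc{}1000 had 29, 40 and 61 counts in tau, against 10, 19 and 11 in control, and 389, 146 and 190 CPM against 33.9, 68.6 and 46.0 CPM. Its log2 fold change was 2.23 ± 0.484 (SE), and its edgeR adjusted p of 0.0607 did not pass. Doc{}970 had 1234, 666 and 757 CPM in tau, against 129, 390 and 314 CPM in control (log2 fold change 1.66 ± 0.469 SE, edgeR adjusted p = 0.115). Both copies passed in DESeq2 and are listed as higher in the authors' deposited table. They were picked for their direction after their values were seen.

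**Figure D4:**
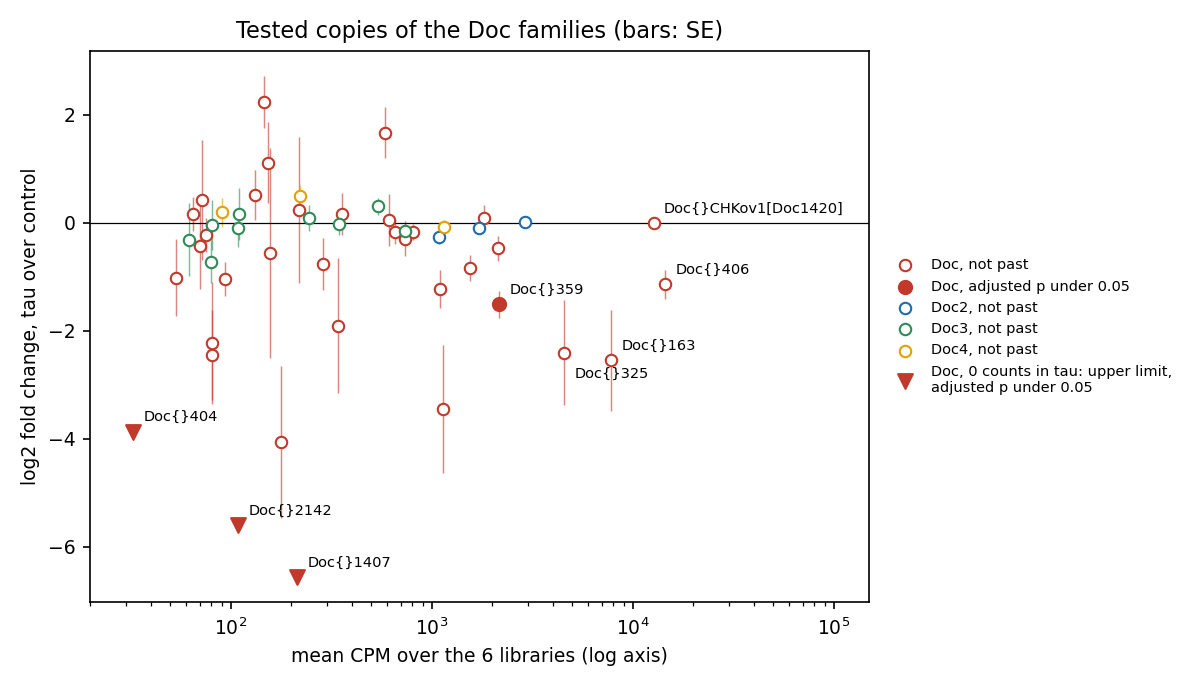
Log2 fold change of tau over control (y axis, bars are SE) against mean CPM over the 6 libraries (x axis, log scale) for the 50 tested copies, coloured by family, with filled symbols for an adjusted p under 0.05. Triangles mark the upper limit of the log2 fold change for the 3 called copies with 0 counts in tau, and the copy in CHKov1 lies at -0.013, near the level of Doc{}406 at -1.14.

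Of the 15 tested copies of Doc2, Doc3 and Doc4, 0 were called in edgeR, 0 in DESeq2 and 0 with any library left out, and 0 had an unadjusted p under 0.05 in edgeR. With 5.92% of all tested insertions called in edgeR, 0 of 15 is near the background and says little about these copies. The genotypes did not overlap in 4 of the 15, with tau below control in 2 and above it in 2, beside 29.2% of all tested insertions. Nearly all Doc2 counts (99.8%) came from 3 copies. Doc2{}4272 had 2963, 2779 and 2987 CPM in tau, against 2862, 2989 and 2784 CPM in control (log2 fold change 0.015 ± 0.089 SE, edgeR adjusted p = 0.959), and its sign turned in 5 of 14 other settings. Doc2{}5179 and Doc2-element{}650 had log2 fold changes of -0.11 ± 0.096 and -0.26 ± 0.145 (SE), with edgeR adjusted p-values of 0.653 and 0.410. In both, every tau library lay below every control library. The 3 copies held 52.2%, 29.7% and 17.8% of Doc2 counts in tau and 49.2%, 30.5% and 20.2% in control, in the same order in every library.

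The 3 Doc3 copies with the most counts held 66.9% of that family's counts. Doc3-element{}1148 had 670, 714 and 710 CPM in tau, against 704, 780 and 854 CPM in control (log2 fold change -0.16 ± 0.139 SE, edgeR adjusted p = 0.643). Doc3{}Kif3C[1555], named for the kinesin gene Kif3C, had 657, 538 and 589 CPM in tau, against 518, 476 and 448 CPM in control. Its groups did not overlap, but its log2 fold change of 0.30 ± 0.157 (SE) did not pass (edgeR adjusted p = 0.386). Doc3{}646 averaged 344 ± 51.3 CPM in tau and 348 ± 45.3 CPM in control (log2 fold change -0.028 ± 0.203 SE, edgeR adjusted p = 0.971). Doc3{}Ir41a[600], named for an ionotropic receptor gene, had 0, 19 and 26 counts in tau, against 23, 24 and 13 in control.

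Doc4 rested mainly on 1 copy, Doc4{}3633, with 77.5% of the family's counts. It had 1073, 1058 and 1227 CPM in tau, against 1080, 1260 and 1214 CPM in control (log2 fold change -0.081 ± 0.132 SE, edgeR adjusted p = 0.823). The smaller copy Doc4{}2555 had 282, 253 and 240 CPM in tau, against 210, 162 and 176 CPM in control. Its groups did not overlap, but it did not pass (0.49 ± 0.200 SE, edgeR adjusted p = 0.269). Doc4{}4397 averaged 97.9 ± 23.8 CPM in tau and 83.5 ± 12.6 CPM in control (0.19 ± 0.267 SE, edgeR adjusted p = 0.826). The leading copy thus lay slightly below control, and Doc4{}2555 and Doc4{}4397 lay above it. None of these differences passed.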

How the data were processed

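Total RNA of fly heads was sequenced in 3 tau and 3 control libraries. Reads were pulled out by the authors with sortmerna, using TE sequences from FlyBase release 6.12 (per the design text of the series), and the submitters' processing notes name Trimmomatic 0.36 and DESeq2 1.14.1. The deposited table holds raw read counts per insertion. Also deposited are the authors' normalised mean, a signal that depends on their size factors, and their log2 fold change and adjusted p-values. No source used here states the strand setting or how reads matching several copies were assigned. FlyBase symbols were matched for 5390 of 5392 insertions, in 123 families.

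Counts were summed per family and tested with edgeR 4.0.16 in R 4.3.3 (quasi-likelihood F-test, TMM factors, default low-count filter, two-sided, Benjamini-Hochberg adjustment over all families or all insertions, threshold 0.05). The SE of a log2 fold change was worked back from the test, as the size of the estimate divided by the square root of the F statistic. For ratios and shares, two-sided exact permutation tests were run in scipy 1.17.1. The fits were tested on simulated data. Alternatives were DESeq2 1.42.0, other scalings and filters, a replicate block and each library left out. Likeness between families was the correlation of log2(CPM + 0.5). The authors' size factors were solved from their normalised mean. The members, lists and tests were chosen with earlier results of these data known. Named copies were those past the threshold, the 3 with the highest mean CPM of each family, and Doc{}1407. Doc{}325, Doc{}928, Doc{}1674, Doc{}966, Doc{}1000, Doc{}970, Doc3-element{}622, Doc3{}Ir41a[600] and Doc4{}2475 fall outside this rule and were chosen after their values were seen. The jockey-clade list was written from general knowledge. The planned match of small RNA entries to Doc copies was not analysed here, for want of the copies' sequences.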

Additional observations from a re-analysis of the deposited data

How the results depend on the processing

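The fall of Doc kept its direction and call in all 20 other settings, Doc2, Doc3 and Doc4 passed in none of 14 each, and the ratios of Doc to the other families and the share of TE counts kept their direction in each setting tried. The 20 settings of Doc include sums without copies chosen after the values were seen. These sums ran from -1.22 to -0.34 on the log2 scale. The number of families called higher was 13 with library totals, 11 with the size factors of the authors and 20 in the test reported. With 1 library left out, Doc2 ran from -0.049 to 0.0051 and Doc3 from -0.093 to 0.016 on the log2 scale. Insertions called numbered 140 with DESeq2 and 16 to 52 with 1 library left out, beside 74. Doc-family copies called lower numbered 7 with DESeq2 and 0 to 7 with 1 library left out, and copies called higher numbered 2 with DESeq2 and 1 with at least 10 counts required in every library of a genotype.

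Same-numbered libraries did not deviate together in every pair (r = -0.025, 0.107 and 0.257 over 116 families, and not every library followed its own number best), so the numbers were not taken as pairs. With the replicate number as a block, Doc stayed at -0.91 (edgeR adjusted p = 3.75e-05), and 9 insertions and 0 Doc-family copies were called.

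Copies near 0 turned sign. The CHKov1 copy stood at 0.0028 with library sizes without copia, 0.015 with the stricter filter and -0.049 to 0.030 with 1 library left out. Doc2{}4272 stood at -0.027 with library totals, -0.014 with size factors of the authors, -0.0099 with no filter and -0.014 to 0.049 with 1 library left out, and Doc3{}646 ran from -0.15 to 0.051. The cause was not tested. The depth of tau 1 limits the copies with few counts.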
